A study of Homo sapiens with 6 samples.

Results

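The genes described here are 10 secreted inflammatory chemokines and cytokines, a class of genes many of which NF-kB is known to drive: CXCL1, CXCL2, CXCL3, CXCL8, CCL2, CSF2, LIF, IL6, IL11 and IL1B. They were chosen by symbol, with earlier results of these data known. All 10 were found by Ensembl gene ID among the 20263 genes of the count table. Their transcripts were measured by RNA sequencing of poly(A)-enriched RNA in U118, a human malignant glioma cell line that the labels call astroblastoma, 2 days after siRNA transfection. The groups were cells given siRNA against RIPK2 (siRIPK2, 4 libraries numbered siRIPK2_1 to siRIPK2_4), cells given a control siRNA (siNC, 1 library) and wild-type cells (WT, 1 library), taken here as untransfected. All were grown in DMEM with fetal bovine serum and penicillin-streptomycin. The labels do not say whether the 4 siRIPK2 libraries are different siRNAs, cultures or repeat transfections, so p-values measure only the spread between libraries, which may be technical. Where siNC and WT are pooled, that spread includes the difference between the controls. Neither control has a replicate, so control values carry no SD.

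In this kind of pathway, receptors for bacterial wall fragments (NOD1 and NOD2) or for interleukin-1 and TNF activate the IkB kinases, which free NF-kB to enter the nucleus. There it binds promoters of chemokine and cytokine genes, often beside AP-1 and C/EBP factors, while AU-rich elements in the 3' untranslated region (UTR) keep the resulting mRNAs short-lived. RIPK2 is the kinase that relays the NOD1 and NOD2 signal. Glioma cells are known to secrete CXCL8, IL6 and LIF, which act on vessels, myeloid cells and the tumour cells themselves.

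All 10 are protein-coding genes, and the 4 CXCL genes lie on chromosome 4 (GRCh38 coordinates, GENCODE release 29). CXCL8 (ENSG00000169429) spans 73740506 to 73743716 and CXCL1 (ENSG00000163739) 73869393 to 73871242 on the plus strand. CXCL3 (ENSG00000163734) spans 74036589 to 74038807 and CXCL2 (ENSG00000081041) 74097035 to 74099293 on the minus strand. The others lie apart. CSF2 (ENSG00000164400) is at chromosome 5, 132073790 to 132076170, and IL6 (ENSG00000136244) at chromosome 7, 22725884 to 22732002. CCL2 (ENSG00000108691) is at chromosome 17, 34255218 to 34257203, and IL11 (ENSG00000095752) at chromosome 19, 55364389 to 55370463. LIF (ENSG00000128342) is at chromosome 22, 30240447 to 30246851, and IL1B (ENSG00000125538) at chromosome 2, 112829751 to 112836903.

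The promoters are shown first because the chemokine genes share a stretch of letters that NF-kB is known to bind. RefSeq promoter windows, 250 bases before to 50 after the start site on GRCh38.p14, were available for 8 of the 10 genes, and CCL2 and LIF had no entry. The lines give the 140 bases before and the 10 after the start site, 5′ to 3′ on the gene's strand, with matches to the NF-kB consensus, to the AP-1 motif TGANTCA or to the core GGAATTTCC in capitals.
CXCL1 (chr4:73869253-73869402, plus strand): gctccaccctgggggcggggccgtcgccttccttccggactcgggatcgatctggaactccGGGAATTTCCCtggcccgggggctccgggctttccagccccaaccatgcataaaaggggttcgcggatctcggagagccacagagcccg
CXCL2 (chr4:74099186-74099335, minus strand): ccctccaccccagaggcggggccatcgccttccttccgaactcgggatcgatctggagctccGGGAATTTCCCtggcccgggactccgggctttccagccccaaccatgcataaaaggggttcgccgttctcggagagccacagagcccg
CXCL3 (chr4:74038680-74038829, minus strand): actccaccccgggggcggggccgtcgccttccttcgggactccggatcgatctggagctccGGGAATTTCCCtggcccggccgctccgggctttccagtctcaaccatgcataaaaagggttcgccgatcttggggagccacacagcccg
CXCL8 (chr4:73740429-73740578, plus strand): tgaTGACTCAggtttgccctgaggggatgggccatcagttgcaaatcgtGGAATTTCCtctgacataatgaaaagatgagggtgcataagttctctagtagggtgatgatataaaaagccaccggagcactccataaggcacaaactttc
IL6 (chr7:22727060-22727209, plus strand): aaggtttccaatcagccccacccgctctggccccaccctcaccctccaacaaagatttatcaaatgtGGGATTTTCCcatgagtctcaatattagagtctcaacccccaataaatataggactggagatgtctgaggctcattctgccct
IL11 (chr19:55370454-55370603, minus strand): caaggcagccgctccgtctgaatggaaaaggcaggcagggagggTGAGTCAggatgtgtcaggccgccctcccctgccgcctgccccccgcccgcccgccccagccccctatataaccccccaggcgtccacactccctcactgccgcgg

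The NF-kB consensus was found in 4 of the 8 windows (CXCL1, CXCL2, CXCL3 and IL6), against 10.8% of 27305 promoter windows of the same length, both strands searched. CXCL1, CXCL2 and CXCL3 are close copies, so their matches are not independent of each other. The members also belong to a class of genes many of which NF-kB is known to drive. The core GGAATTTCC, searched after the sequences had been seen, was in CXCL1, CXCL2, CXCL3 and CXCL8 and in 0.461% of all windows, and in the CXCL1 to CXCL3 windows it lies inside the consensus match. It starts 78 bases before the start site in CXCL1 and CXCL3, 77 before in CXCL2 and 91 before in CXCL8. The AP-1 motif was in CXCL8 and IL11, against 7.9% of windows. The C/EBP motif TTNNGNAA was in CXCL2, IL1B and IL6, against 37.5% of windows. TATAAA on the gene's strand was in CXCL8 alone of the 8, against 7.82% of windows. The CSF2 window held none of these letters, which says nothing of the factors that act there.

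The mRNAs shared a second feature, the AU-rich pentamer ATTTA in the 3' UTR, as counted in the principal GENCODE release 29 transcript. The members had a median of 7 pentamers, against a median of 1 over 19094 genes with a 3' UTR, and a median density of 8.51 per kb against 1.39 per kb. The 30 bases with the most pentamers are shown for CSF2, CXCL2 and CXCL8, which are dense in them, and for IL6 and CCL2, which hold fewer in any such window, with each pentamer in capitals.
CSF2 (chromosome 5): ttttaaaatATTTATTTATTTATTTATTTA
CXCL2 (chromosome 4): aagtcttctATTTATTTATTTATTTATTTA
CXCL8 (chromosome 4): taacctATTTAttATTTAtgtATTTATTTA
IL6 (chromosome 7): ttttaattatttttaATTTAttaatATTTA
CCL2 (chromosome 17): tatgccttaagtaatgttaattcttATTTA
CSF2, whose 3' UTR is 318 bases long, held 8 pentamers, 5 of them within those 30 bases. At least 5 within 30 bases were present in 0.199% of genes. At least 3 pentamers within 30 bases were present in 7 of the 10 members and in 2.59% of genes. CCL2 held 1 pentamer in all and LIF, with a 3' UTR of 3204 bases, held 7. The presence of a pentamer does not measure how fast an mRNA decays.

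**Figure D1:**
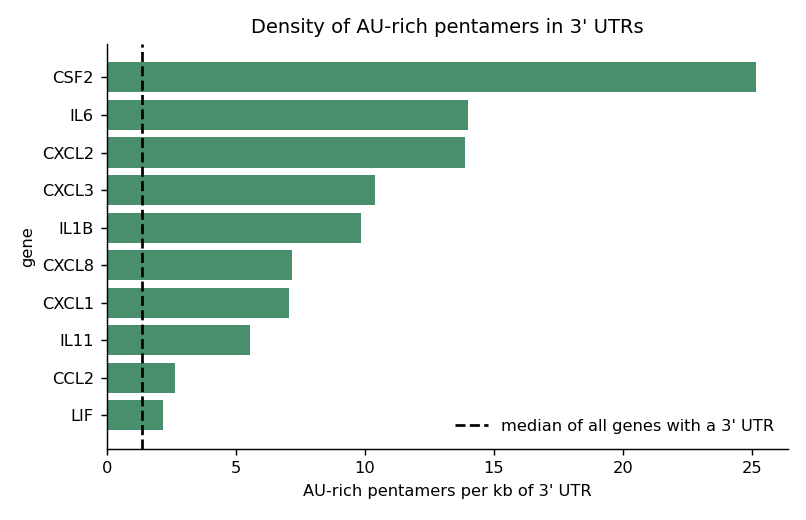
AU-rich pentamers (ATTTA) per kb of 3' UTR in the principal transcript of each gene (bars), with the median of all genes with a 3' UTR as a dashed line. CSF2 has the highest density, 25.2 per kb, and LIF the lowest, 2.19 per kb, while the median of all genes is 1.39 per kb.

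The libraries held between 33540619 counts (siNC) and 45309423 counts (siRIPK2_3), and 13390 to 13823 genes had at least 10 counts. RIPK2 was at 3.86, 11.9, 6.27 and 4.32 CPM (counts scaled to a common library size, with TMM factors) in siRIPK2_1 to siRIPK2_4, against 43.4 CPM in siNC and 56.8 CPM in WT, so siRIPK2_2 kept the most target transcript. Of the markers of glioma cells, VIM averaged 5671 ± 1397 CPM in siRIPK2 (SD, n = 4), 7572 CPM in siNC and 6477 CPM in WT. FN1 was at 2745 CPM in siRIPK2_1 and at 7074 to 9854 CPM in the other 3 siRIPK2 libraries, against 9026 CPM in siNC and 8357 CPM in WT. NES, a neural progenitor filament, averaged 46.3 ± 22.04 CPM in siRIPK2, 18.5 CPM in siNC and 69.1 CPM in WT, so it was lowest in siNC. The astrocyte marker GFAP lay between 0.532 and 1.09 CPM and S100B had at most 3 counts in any library. Of 12 markers of macrophages and microglia, 6 (AIF1, TYROBP, FCGR3A, C1QA, C1QB and C1QC) had at most 3 counts in every library. The list's summed level was 108 to 150 CPM in siRIPK2, 98.03 CPM in siNC and 168 CPM in WT, most of it CD68, and was lowest in siNC, where 6 of the 8 tested cytokine transcripts were highest. LAPTM5 of the same list ran the other way, at 0.332 to 0.706 CPM in siRIPK2, 2.87 CPM in siNC and 0.944 CPM in WT, and of the 4 list members tested it alone had an edgeR p under 0.05 before adjustment for siRIPK2 against siNC. CSF1R was at 1.18 to 3.69 CPM in siRIPK2, 3.49 CPM in siNC and 1.97 CPM in WT. The part of these markers in the results was not tested. The 6 endothelial markers summed to 2.04 to 7.54 CPM in siRIPK2, 7.23 CPM in siNC and 4.66 CPM in WT. The siNC library also differed from WT with transcript length. Its median log2 fold change was 0.07 over the 3575 genes with the shortest transcripts, which include 6 of the 8 cytokine genes tested, and -0.08 over the 3571 genes with the longest. Values with a length and GC correction are given with the results.

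Of the 10 genes, 8 were abundant enough to test. CXCL1 had 2, 3, 0 and 0 counts in siRIPK2_1 to siRIPK2_4, 0 counts in siNC and 0 in WT. IL1B, whose product is made as a precursor that caspase-1 cleaves, had 4, 0, 2 and 5 counts in siRIPK2, 0 in siNC and 2 in WT. A floor of 3 counts corresponds to 0.0662 to 0.0806 CPM in siRIPK2, 0.0894 CPM in siNC and 0.0838 CPM in WT. These floor values are scaled by total counts without TMM factors and cover counting error only. Neither gene exceeded 5 counts in any library, and no fold is given. Of the other 8, 7 passed the filter on low counts in all 6 libraries, and CCL2, with 24, 20, 14 and 16 counts in siRIPK2, 16 in siNC and 5 in WT, passed it in 5. The low CXCL1 count beside an abundant CXCL3 is read with care, because these genes are near-identical copies. The coding sequences of CXCL1, CXCL2 and CXCL3 were 90.7% to 94.4% identical, although at most 5.73% of the 50-base stretches of any of the 3 transcripts occurred in another. How the authors' counting treated reads that fit more than 1 copy is not given in the sources used here.

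Expressed per transcript length, as TPM (counts divided by transcript length and scaled to a common total) averaged over the 6 libraries, CXCL8 was at 42.2, CXCL3 at 30.7, CSF2 at 20.6 and LIF at 15.3 TPM. IL6 followed at 5.39, CXCL2 at 3.25, CCL2 at 1.34 and IL11 at 1.05 TPM, and IL1B and CXCL1 at 0.0827 and 0.0473 TPM. The ranges over libraries overlapped for every pair of neighbours in this order except IL11 and IL1B. CSF2 spanned 3.06 to 55.6 TPM, the widest range in proportion among the 8 tested genes.

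The first question was whether cells with less RIPK2 held less chemokine and cytokine mRNA than cells given the control siRNA. The 8 genes tested were all lower on average in siRIPK2 than in siNC, where 48.3% of the 14306 genes tested were lower. The median of their log2 fold changes was -1.32, and that of all genes 0.02. In 6 of the 8 (CXCL2, CXCL3, CXCL8, CSF2, IL6 and IL11) all 4 siRIPK2 libraries lay below siNC, where 17.3% of genes did. In edgeR's quasi-likelihood test with Benjamini-Hochberg adjustment over all genes, 0 of the 8 passed the threshold of 0.05, as did 0% of genes. At an unadjusted p under 0.05, 4 of the 8 were lower (CXCL3, CSF2, IL6 and IL11) and 0 higher, where 1.21% of genes were lower and 3.56% higher. This count was 4, 5, 4 and 4 when siRIPK2_1, siRIPK2_2, siRIPK2_3 or siRIPK2_4 was left out, where 1.58%, 1.53%, 1.24% and 1.01% of genes were lower. It was also 4 in DESeq2, where 1.1% of genes were lower, and in limma-voom, where 1.47% were. After adjustment 0 of the 8 passed in either, while 0.517% of genes passed in DESeq2 (69 higher and 5 lower) and 0 genes in limma-voom.

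Among the neutrophil-attracting chemokines, which act through CXCR2, CXCL8 (interleukin-8) had 15.6, 50.9, 14.2 and 25.3 CPM in siRIPK2_1 to siRIPK2_4, against 61.8 CPM in siNC and 14.5 CPM in WT. Only siRIPK2_2 came near the siNC level, at 82.4% of it, and the other siRIPK2 libraries lay between 23% and 40.9%. The log2 fold change against siNC was -1.22 (SE 0.62, 95% interval -2.67 to 0.22), with an unadjusted p of 0.0861 and an adjusted p of 1 in edgeR. Without siRIPK2_2 it was -1.75, and without siRIPK2_1, siRIPK2_3 or siRIPK2_4 it was -1.05, -1.02 and -1.20.

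CXCL3 had 8.15, 13.1, 12.4 and 10.9 CPM in siRIPK2, against 29.6 CPM in siNC and 10.2 CPM in WT. The siRIPK2 libraries kept to a narrow band around the WT value, at 27.5% to 44.3% of siNC. Against siNC the log2 fold change was -1.41 (SE 0.35, interval -2.22 to -0.60), with an unadjusted p of 0.00409 and an adjusted p of 0.972 in edgeR. Its close copy CXCL2 had 1.31, 2.02, 1.51 and 2.06 CPM in siRIPK2, against 2.24 CPM in siNC and 0.86 CPM in WT. All 4 siRIPK2 libraries lay below siNC and above WT, as they also did for CSF2 and for 1.29% of genes. For CXCL2 siRIPK2_2 and siRIPK2_4 lay near siNC, at 89.9% and 91.9% of it. Before scaling they had more counts than siNC, 83 and 75 against 72. The CXCL2 log2 fold change against siNC was -0.38 (interval -1.58 to 0.82). With the counts of CXCL1, CXCL2 and CXCL3 summed to 1 feature, the log2 fold change was -1.31 (SE 0.34), with an unadjusted p of 0.00564 and an adjusted p of 0.972 in edgeR.

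CCL2, which attracts monocytes through CCR2, had 0.605, 0.486, 0.31 and 0.44 CPM in siRIPK2, against 0.499 CPM in siNC and 0.139 CPM in WT. The siRIPK2 libraries lay on both sides of siNC, and all were above WT. At these counts the interval of the log2 fold change against siNC was wide, -1.89 to 1.66.

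CSF2, which encodes the myeloid growth factor GM-CSF, had 6.79, 7.53, 3.61 and 2.75 CPM in siRIPK2, against 19.7 CPM in siNC and 0.999 CPM in WT. The siRIPK2 libraries did not overlap either control: they held 13.9% to 38.2% of the siNC level and 275% to 754% of the WT level. The log2 fold change against siNC was -1.93 (SE 0.53, interval -3.17 to -0.69), with an unadjusted p of 0.00718 and an adjusted p of 0.972 in edgeR.

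LIF, IL6 and IL11 all signal through gp130, the product of IL6ST, and did not share a pattern over the siRIPK2 libraries. LIF, which sustains stem-like states, had 35.3, 38.9, 14.7 and 13.5 CPM in siRIPK2, against 36.3 CPM in siNC and 13.4 CPM in WT. Its siRIPK2 libraries thus split, siRIPK2_1 and siRIPK2_2 lying at the siNC level and siRIPK2_3 and siRIPK2_4 at the WT level. Against siNC the log2 fold change was -0.50 (interval -1.91 to 0.90).

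IL6, the acute-phase and STAT3-activating cytokine, had 0.858, 3.52, 2.68 and 2.56 CPM in siRIPK2, against 8.91 CPM in siNC and 2.66 CPM in WT. The lowest value was in siRIPK2_1, at 9.62% of siNC, the library in which LIF stood at 97.2% of siNC. The log2 fold change against siNC was -1.89 (SE 0.62, interval -3.32 to -0.46), with an unadjusted p of 0.0163 and an adjusted p of 0.972 in edgeR. IL6 exons overlap those annotated for STEAP1B, without regard to strand. The strand setting of the counting is not given, so its reads there may include that gene's.

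IL11, known in fibroblasts and epithelium as a factor induced by TGF-beta, had 0.429, 0.316, 0.997 and 0.468 CPM in siRIPK2, against 2.99 CPM in siNC and 0.999 CPM in WT. All 4 siRIPK2 libraries lay below both controls, although siRIPK2_3 held 99.8% of the WT level. Against siNC the log2 fold change was -2.43 (SE 0.65, interval -3.94 to -0.91), with an unadjusted p of 0.00623 and an adjusted p of 0.972 in edgeR. In bulk RNA, fewer cells making a transcript and less transcript per cell cannot be told apart for any of these genes.

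**Figure D2:**
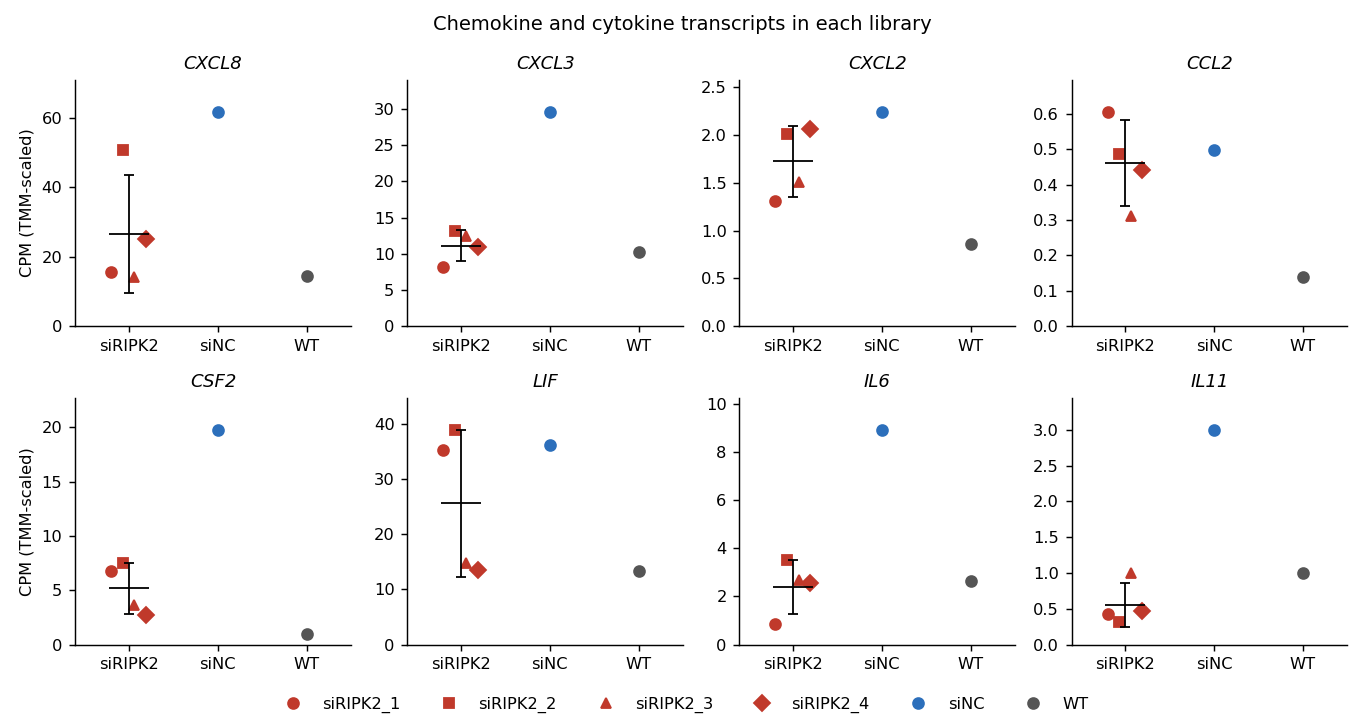
CPM of the 8 tested genes in each library, with siRIPK2 libraries as red symbols (bar and whiskers: mean ± SD, n = 4), siNC in blue and WT in grey, each gene on its own axis from 0. The siNC point is the highest for 6 genes, and the siRIPK2 points of CSF2 lie between 2.75 and 7.53 CPM, below siNC at 19.7 CPM and above WT at 0.999 CPM.

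The siNC library also held more of these transcripts than WT, and this comparison shares the siNC library with that of siRIPK2 against siNC. All 8 genes tested had at least 2 times the WT level in siNC, where 4.56% of genes did, and siNC was the highest of the 6 libraries for 6 of the 8, against 15.2% of genes. WT was the lowest library for CXCL2, LIF, CSF2 and CCL2, which is 4 of the 8, against 8.21% of genes. The ratio of siNC to WT was 19.8 for CSF2, 4.25 for CXCL8, 3.59 for CCL2 and 3.35 for IL6. It was between 2.61 and 3 for IL11, CXCL3, LIF and CXCL2. The log2 fold change was below 0 for 0 of the 8 and for 50.2% of genes. Its median was 1.66 for the 8, and 0 for all genes.

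In edgeR 0 of the 8 passed the adjusted threshold for siNC against WT, as did 0% of genes, and 3 (CXCL3, CXCL8 and CSF2) were higher at an unadjusted p under 0.05, where 0.643% of genes were. None of the 8 was lower at that p, where 2.09% of genes were. CSF2 had a log2 fold change of 4.30 (SE 0.87, interval 2.27 to 6.33), with an unadjusted p of 0.00128 and an adjusted p of 1 in edgeR. In DESeq2, which called 0.0769% of genes here, its adjusted p was 0.00131, and over all alternatives it ranged from 0.00131 to 1. This sets 1 library against 1, with the spread taken from the siRIPK2 libraries, and each lone library is assumed to vary as those do.

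Against WT the siRIPK2 libraries were higher on average in 6 of the 8 genes and lower in IL6 and IL11, where 48.1% of all genes were lower. The median for the 8 was 0.90, and that for all genes 0.01. In CXCL2, LIF, CSF2 and CCL2 all 4 siRIPK2 libraries lay above WT, where 11.5% of genes did. In edgeR 0 of the 8 passed after adjustment, and CSF2 alone was higher at an unadjusted p under 0.05, where 0.664% of genes were. None was lower at that p, where 0.419% of genes were. The CSF2 log2 fold change was 2.37 (SE 0.73, interval 0.68 to 4.05), with an unadjusted p of 0.0121 and an adjusted p of 1. Its unadjusted p stayed under 0.05 in all 10 alternatives tried, up to 0.0311 in limma-voom.

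The remaining genes had wide intervals against WT: -0.80 to 2.53 for CXCL8, -0.78 to 1.02 for CXCL3, -0.34 to 2.34 for CXCL2 and -0.41 to 3.82 for CCL2. They were -0.62 to 2.49 for LIF, -1.74 to 1.45 for IL6 and -2.51 to 0.82 for IL11. A difference of 2-fold in at least 1 direction was therefore within the interval of each of them. For IL11 the log2 fold change was -0.85. It was -1.301 without siRIPK2_3, and -0.75, -0.65 and -0.78 without siRIPK2_1, siRIPK2_2 or siRIPK2_4.

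**Figure D3:**
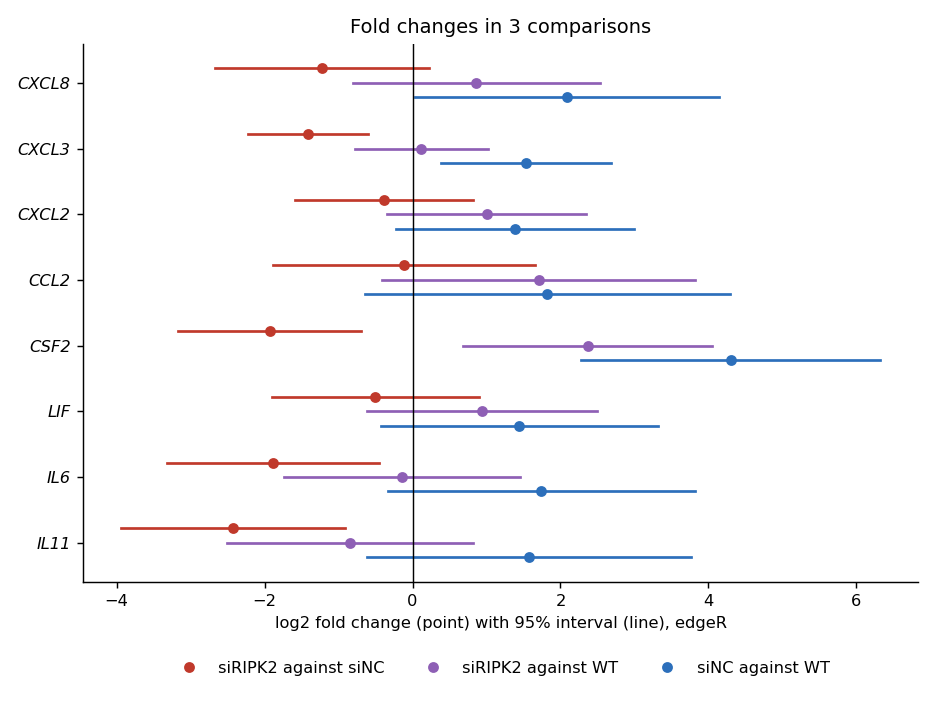
Log2 fold changes of the 8 tested genes (points) with 95% intervals (lines) from edgeR, siRIPK2 over siNC in red, siRIPK2 over WT in purple and siNC over WT in blue. Every point for siRIPK2 against siNC is below 0 and every point for siNC against WT is above 0, while CSF2 is the gene whose 3 intervals all leave out 0.

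Taking siNC and WT together as the reference, edgeR called 0 of the 8 and 0% of 13901 genes, and 5 of the 8 had a log2 fold change below 0, where 47.9% of genes did. At an unadjusted p under 0.05, IL11 alone was lower, where 1.23% of genes were, and 0 of the 8 were higher, where 1.32% were. The IL11 log2 fold change was -1.84 (SE 0.60), with an unadjusted p of 0.0134 and an adjusted p of 1. It was also the gene among the 8 whose 4 siRIPK2 libraries all lay below both controls, as did 5.5% of genes. None of the 8 lay above both controls in all 4 libraries, as 4.96% of genes did. In a two-sided exact permutation test on mean log2(CPM + 1), with 15 possible assignments, p was 0.133 for IL11 and between 0.4 and 0.8 for the other 7. The smallest two-sided p this test can give with 15 assignments is 0.133, the value for IL11. The sign of the pooled comparison depended on the control kept for 6 of the 8. With WT as the only control the log2 fold changes of CXCL3, CXCL8 and CSF2 were 0.13, 0.87 and 2.37, and with siNC as the only control they were -1.42, -1.23 and -1.94. Those of CXCL2, LIF and CCL2 were 1.01, 0.94 and 1.71 with WT only, and -0.39, -0.51 and -0.12 with siNC only.

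The genes differed in how far they varied among the siRIPK2 libraries. The ratio of the highest to the lowest siRIPK2 library was 4.11 for IL6, 3.59 for CXCL8, 3.16 for IL11, 2.87 for LIF and 2.74 for CSF2. It was 1.95 for CCL2, 1.61 for CXCL3 and 1.57 for CXCL2. The library with the most residual RIPK2, siRIPK2_2, was the highest of the 4 for CXCL3, CXCL8, IL6, LIF and CSF2, which is 5 of 8, against 25.5% of genes. IL11 was lowest in that library. With 4 libraries no relation to the residual RIPK2 level was tested.

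Over the 6 libraries, each gene was set against the mean standardised log2(CPM + 1) profile of the other 7, as a description in which the points share library and depth. CSF2 followed it most closely (Pearson r = 0.91), then CXCL8 (0.87), CXCL3 (0.83), CXCL2 (0.73), IL6 (0.69) and LIF (0.60), with IL11 (0.47) and CCL2 (0.46) least alike. Of single pairs, CXCL3 and IL6 were most alike (r = 0.96), whereas IL11 and CCL2 had r = -0.12. The siNC library is the highest of 6 in most of these genes and weighs heavily in every such r.

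**Figure D4:**
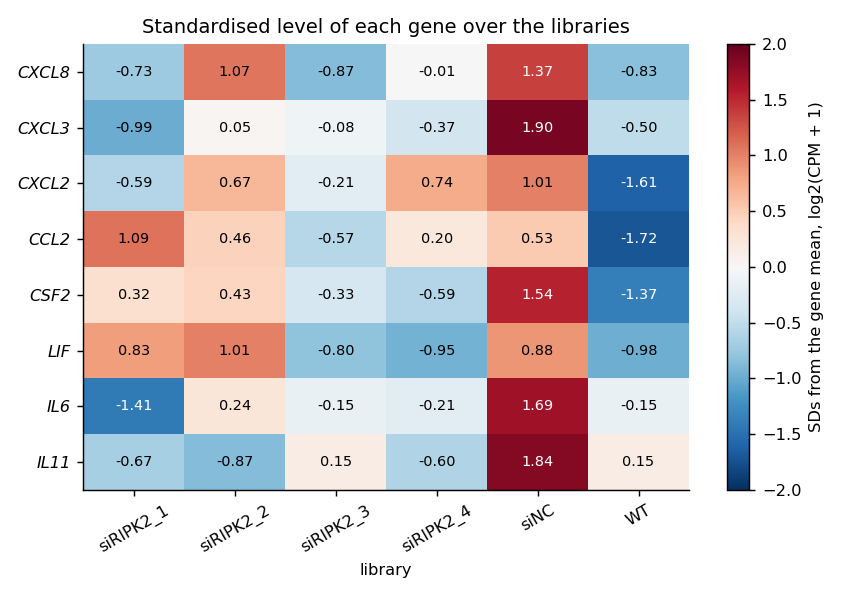
Level of each tested gene in each library, in SDs from that gene's mean over the 6 libraries on the log2(CPM + 1) scale (red above, blue below). The siNC column is above the mean for all 8 genes, from 0.53 to 1.90 SDs, and siRIPK2_2 ranges from -0.87 SDs for IL11 to 1.07 SDs for CXCL8.

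Outside the set, the gene with a mean of at least 5 CPM most like the mean profile of the 8 genes was NFKB2, the p100 subunit of NF-kB (r = 0.97 over 6 libraries). NFKB2 had 63.2, 88.4, 64.2 and 75.9 CPM in siRIPK2, against 120 CPM in siNC and 60.2 CPM in WT. CHEK2, IER2, IMPA2 and CIART came next (r = 0.97, 0.96, 0.96 and 0.96). Of these IER2, an immediate early gene, had 7.49, 13.3, 5.56 and 10.8 CPM in siRIPK2, against 49.1 CPM in siNC and 5.36 CPM in WT. CHEK2 stayed between 18.6 and 20.5 CPM in all libraries and overlaps HSCB. These genes were picked as the highest r among all genes at that level, and the siNC library weighs heavily in each r. Among those at the other end were CENPE (r = -0.98), GORAB (-0.97), CD68 (-0.96) and MACO1 (-0.96). CENPE, a mitotic kinesin, had 34.4, 21.1, 27.02 and 27.2 CPM in siRIPK2, against 11.5 CPM in siNC and 41.8 CPM in WT.

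The other parts of the pathway were read from 8 lists, in which 0 genes passed the adjusted threshold in edgeR in any of the 4 comparisons. Of 35 other secreted chemokines and cytokines 21 could be tested, 14 of them lower and 7 higher in siRIPK2 than in siNC. Their median was -0.53 (log2) against siNC and 0.34 against WT. At an unadjusted p under 0.05 against siNC 3 were lower and 0 higher. Those 3 genes averaged under 1 CPM over all libraries. Over all genes 1.21% were lower and 3.56% higher at that p. CCL20, with 14 counts in siNC and at most 4 in any other library, passed the filter on low counts through siNC alone. By the rule for named genes, those with the lowest p at 1 CPM or more were MIF, IL7, IL32 and CXCL12. MIF, the macrophage migration inhibitory factor, whose exons overlap another annotated gene, averaged 738 ± 47.3 CPM in siRIPK2 (SD, n = 4), 1072 CPM in siNC and 790 CPM in WT. IL7, a lymphocyte growth factor that overlaps ZC2HC1A, averaged 4.84 ± 0.937 CPM in siRIPK2, 2.37 CPM in siNC and 3.50 CPM in WT, so that siRIPK2 was the highest group. IL32 averaged 1.59 ± 0.52 CPM in siRIPK2, 2.93 CPM in siNC and 1.304 CPM in WT, and CXCL12 4.82 ± 1.43, 7.54 and 3.52 CPM in the same groups.

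The receptors that would read these ligands were mostly those of the gp130 and interleukin-1 families. Of 15 listed receptors and antagonists 10 could be tested. The CXCL8 receptors were at the floor: CXCR1 had 0 CPM in every library and CXCR2 no more than 3 counts, which is 0.0935 CPM in siNC with TMM factors. IL6ST, the gp130 chain shared by LIF, IL6 and IL11, averaged 159 ± 7.33 CPM in siRIPK2, 99.2 CPM in siNC and 160 CPM in WT. It was the only receptor with an unadjusted p under 0.05 against siNC (log2 fold change 0.68, p of 0.0433 in edgeR before adjustment), and it did not pass after adjustment. IL6R, the IL6-binding chain, averaged 29.3 ± 19.9 CPM in siRIPK2, 15.02 CPM in siNC and 13.1 CPM in WT. IL1R1 averaged 35.02 ± 9.34 CPM in siRIPK2, 27.7 CPM in siNC and 28.6 CPM in WT, and the antagonist IL1RN 1.08 ± 1.42, 2.15 and 1.94 CPM in the same groups.

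All 19 NF-kB subunits, kinases and inhibitors could be tested. In siRIPK2, 16 were lower than in siNC (median log2 fold change -0.21) and 15 higher than in WT (median 0.24). For siNC against WT, 16 were higher and 3 lower (median 0.43). The 3 with an unadjusted p under 0.05 against siNC were the NF-kB targets NFKBIE, TNFAIP3 and NFKB2, each lower, where 0 were higher. Over all genes 1.21% were lower and 3.56% higher at that p. NFKBIE, TNFAIP3 and NFKB2 were also higher in siNC than in WT, with log2 fold changes of 1.54, 1.28 and 1.00. For siRIPK2 over WT their log2 fold changes were 0.35, 0.31 and 0.28. NFKBIE, an IkB inhibitor, averaged 10.3 ± 2.71 CPM in siRIPK2, 23.6 CPM in siNC and 8.10 CPM in WT. TNFAIP3, the ubiquitin-editing inhibitor A20, averaged 70.3 ± 15.2 CPM in siRIPK2, 137 CPM in siNC and 56.6 CPM in WT. NFKBIB, which overlaps SIRT2, ran the other way with 29.04 ± 9.34 CPM in siRIPK2, 14.6 CPM in siNC and 24.6 CPM in WT.

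Of 25 NF-kB targets that are not secreted cytokines 22 could be tested. Their log2 fold changes had a median of -0.71 for siRIPK2 over siNC, 0.21 for siRIPK2 over WT and 1.03 for siNC over WT. Against siNC 7 were lower and 0 higher at an unadjusted p under 0.05. Over all genes 1.21% were lower and 3.56% higher at that p. MMP9, with 9 counts in siNC and at most 5 in any other library, passed the filter on low counts through siNC alone. Named by the rule, TRAF1 and BIRC3 are adaptors of TNF receptor signalling. They averaged 21.1 ± 7.32 and 20.5 ± 4.88 CPM in siRIPK2, 56.9 and 45.3 CPM in siNC and 12.4 and 13.04 CPM in WT. CD83 averaged 10.1 ± 1.81 CPM in siRIPK2, 19.9 CPM in siNC and 9.35 CPM in WT. ICAM1, the leukocyte adhesion molecule, averaged 2.58 ± 1.13 CPM in siRIPK2, 7.14 CPM in siNC and 2.86 CPM in WT.

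The remaining lists had medians closer to 0. The 12 AP-1 and C/EBP factors had log2 fold changes with a median of 0.04 over siNC, and 0 genes at an unadjusted p under 0.05. CEBPD averaged 14.1 ± 2.58 CPM in siRIPK2, 7.98 CPM in siNC and 7.97 CPM in WT, and JUNB, which overlaps HOOK2, averaged 89.2 ± 33.9, 154 and 81.03 CPM in the same groups. CEBPB was at 187 ± 34.9, 251 and 181 CPM and FOSL1 at 733 ± 156, 929 and 696 CPM. The 12 proteins that bind cytokine mRNAs had a median of 0.05, also with 0 such genes. ARID5A, which protects IL6 mRNA, averaged 4.76 ± 1.73 CPM in siRIPK2, 9.51 CPM in siNC and 5.27 CPM in WT. RC3H1, which degrades cytokine mRNAs, averaged 23.3 ± 3.72, 16.6 and 20.4 CPM, ELAVL1 128 ± 9.51, 151 and 136 CPM and TIAL1 80.2 ± 12.6, 67.1 and 67.6 CPM.

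In the NOD-RIPK2 and interleukin-1 list, 13 of 15 genes could be tested and the median over siNC was 0.09 (log2). RIPK2 itself was the only one lower at an unadjusted p under 0.05 against siNC, and none was higher. The RIPK2 log2 fold change was -2.72 against siNC and -3.11 against WT. Against both controls pooled it was -2.93, with an unadjusted p of 8.17e-05 and an adjusted p of 0.739 in edgeR. The silenced target itself thus did not pass the adjusted threshold, which limits what the lack of called genes can show. MYD88, the interleukin-1 receptor adaptor, averaged 66 ± 20.5 CPM in siRIPK2, 96.8 CPM in siNC and 38.6 CPM in WT. IRAK4 averaged 9.62 ± 3.28, 7.54 and 8.13 CPM and IRAK2 71.1 ± 28.9, 54.7 and 53.9 CPM in the same groups. The list of RNA sensing and interferon genes, which double-stranded RNA can induce, had a median of -0.08 against siNC and 0.14 for siNC against WT, with 16 of 17 genes tested and 0 at an unadjusted p under 0.05 in either. MX1 averaged 2.64 ± 0.25 CPM in siRIPK2, 1.78 CPM in siNC and 3.00 CPM in WT. MAVS was at 230 ± 56.04, 305 and 265 CPM in the same groups, and RIGI, the RNA helicase sensor, at 16.2 ± 2.58, 12.6 and 15.4 CPM.

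**Figure D5:**
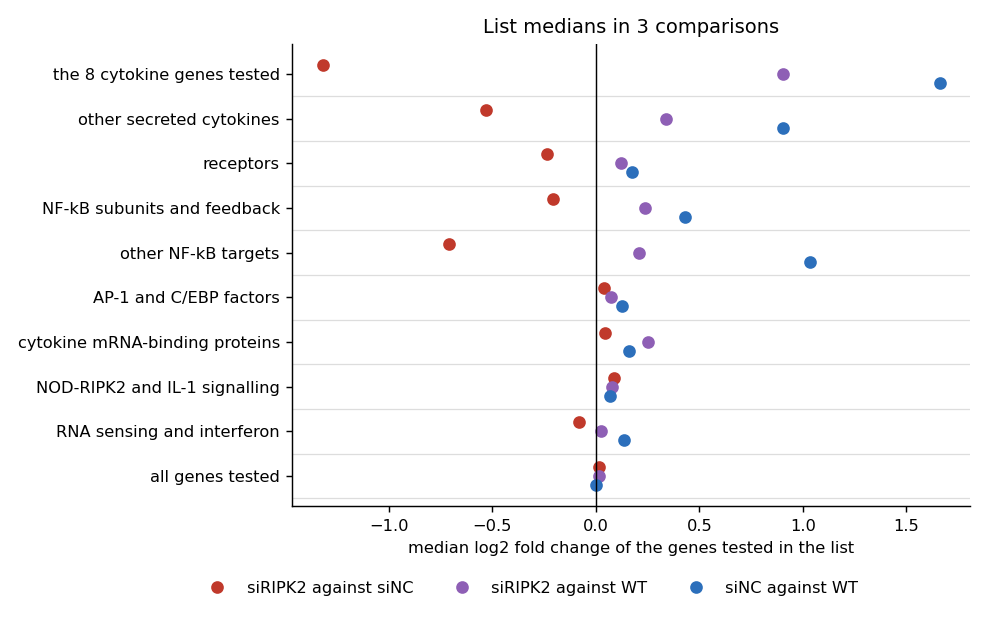
Median log2 fold change of the tested genes in each list (siRIPK2 over siNC in red, siRIPK2 over WT in purple, siNC over WT in blue). The cytokine genes have medians of -1.32, 0.90 and 1.66, the other NF-kB targets -0.71, 0.21 and 1.03, and all genes tested 0.02, 0.01 and 0.

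With offsets for transcript length and GC content, added after the data had been seen, the log2 fold changes against siNC were -1.73 for CSF2, -1.81 for IL6, -2.35 for IL11, -1.31 for CXCL3 and -1.52 for CXCL8. For siNC against WT they were 4.15 for CSF2 and 2.497 for CXCL8. At an unadjusted p under 0.05, 5 of the 8 were lower than in siNC with the correction, where 1.14% of genes were, and 0 of the 8 passed after adjustment in edgeR in any of the 4 comparisons.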

How the data were processed

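Expression was deposited by the authors as unnormalised whole-number counts, 1 table with a column per library and a row per Ensembl ID. The tools named per the submitters' processing notes are FastQC, Trimmomatic, HISAT2 and bedtools, and the build is GRCh38; the sources used here give no versions, annotation, strand setting or treatment of multiply mapped reads. Symbols were matched for 20148 of 20263 IDs, and lengths, 3' UTRs and overlaps came from GENCODE release 29 (20224 IDs matched). Total counts per library were 33540619 to 45309423. Chi-square per degree of freedom between libraries was 77.1 to 224, far beyond sampling noise, and all were kept.

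The test was edgeR's quasi-likelihood test (edgeR 4.0.16, R 4.3.3) on genes kept by filterByExpr at its minimum count of 10, with TMM factors and Benjamini-Hochberg adjustment over every gene tested (threshold 0.05). A fit with 3 groups has 3 residual degrees of freedom, all from siRIPK2. A fit with siNC and WT pooled has 4. With 3 groups the filter asks for 0.263 CPM in at least 1 library, because siNC and WT have 1 library each. SEs and 95% intervals were derived from the F statistic, and the test was checked on simulated counts. Alternatives were DESeq2 1.42.0, limma-voom (limma 3.58.1), RLE factors, no filter, left-out libraries and length and GC offsets. TPM used principal transcript lengths.

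The members and lists were chosen with earlier results of these data known. Named genes were the members, RIPK2, up to 4 genes per list with the lowest unadjusted p against siNC at a mean of 1 CPM or more, and the 5 genes at 5 CPM or more at each end of likeness to the members' mean profile. Some genes that this rule names are not reported here.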

Additional observations from a re-analysis of the deposited data

How the results depend on the processing

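No paired analysis was possible because siNC and WT carry no replicate number in the labels. Of 320 log2 fold changes of single members over 12 alternative settings, 308 kept their direction and their side of the threshold, 11 had the opposite sign and 1, CSF2 for siNC against WT in DESeq2, passed the threshold. No member passed in any other setting. For siNC against WT the number of members that passed was 1 in DESeq2 and 0 in every other setting. Over all genes, 0 passed in edgeR in each comparison, with 509 higher and 173 lower at an unadjusted p under 0.05 for siRIPK2 against siNC, 95 and 60 for siRIPK2 against WT, 92 and 299 for siNC against WT, and 184 and 171 for siRIPK2 against both controls. DESeq2 called 74, 9, 11 and 11 genes in these comparisons. For siRIPK2 against WT, limma-voom called 1 gene, as did edgeR without a filter on low counts. For siRIPK2 against both controls, leaving out a library gave between 0 and 2 called genes. The cause was not tested for any of these. The 320 values are not all separate checks. Leaving out a siRIPK2 library hardly moves siNC against WT, 4.2989 to 4.3105 (log2) for CSF2, because that sets 1 library against 1. Leaving siNC or WT out of the pooled comparison repeats the fit of siRIPK2 with the other control alone.

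For siRIPK2 against both controls, CSF2 was -1.0005 in edgeR and 0.14 in limma-voom with the same libraries, and its difference of means was -0.15 with a pseudocount of 1 and 0.0065 with 0.25 in the exact permutation test. Leaving out 1 library at a time, siNC and WT included, gave -1.94 to 2.37 for CSF2, -0.51 to 0.94 for LIF, -1.42 to 0.13 for CXCL3, -1.23 to 0.87 for CXCL8, -0.39 to 1.01 for CXCL2 and -0.12 to 1.71 for CCL2. Leaving out 1 siRIPK2 library gave -0.39 to 0.13 for IL6 against WT and -0.29 to 0.0334 for CCL2 against siNC. With 5 to 24 counts per library for CCL2, and fewer for CXCL1 and IL1B, counting error limits what can be seen of these genes.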
